A study of Rattus norvegicus with 9 samples.

Results

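The comparison described here sets the hippocampus of 3 rats with post-stroke cognitive impairment (PSCI) against the hippocampus of 3 control rats. It covers all 14840 genes with enough counts to test, of 18733 genes listed. The 6 libraries are all those of the PSCI and control groups among the 9 of the study. All 9 rats were male, and each gave 1 library of poly(A)-selected RNA. Control rats received regular feeding and no other treatment is named for them. PSCI rats had middle cerebral artery occlusion (MCAO), a surgical stroke, and entered when both their spontaneous alternation rate and their cognitive index lay below 20% of the control mean, after which they had regular feeding for 2 weeks. The remaining 3 rats were impaired in the same way and given transcutaneous auricular vagus nerve stimulation (taVNS) for 14 days. Their libraries served here to estimate the spread of each gene and to compare the deposited counts with the deposited RPKM. The labels give no sham operation for controls, no hemisphere, no age and no strain. The extraction text speaks of mice, while the organism label and the gene identifiers are those of the rat.

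The middle cerebral artery feeds mainly the lateral cortex and the striatum, while the hippocampus, a structure needed for spatial and recognition memory, takes most of its blood from other arteries. Microglia, the resident phagocytes of the brain, carry Fc receptors, integrins and lectins that bind debris, and can divide after injury, as can astrocytes and oligodendrocyte precursors. Astrocytes at rest take up transmitters, make apolipoprotein E particles that carry cholesterol to neurons, and secrete proteins of the synaptic matrix.

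Libraries held 13747381 to 15415684 counts. Levels are given as CPM, counts scaled to library size, on which scale 3 counts correspond to 0.195 to 0.218 CPM. Markers of hippocampal pyramidal and granule neurons were present in all 6 libraries, with 11 of 12 markers passing the filter on low counts. PSCI replicate 2 stood apart from PSCI replicates 1 and 3. Its 14 markers of meninges and fibroblasts averaged 4.43 log2 CPM, against 2.16 and 2.37 in PSCI replicates 1 and 3 and 1.87 to 1.98 in control. Its neuron markers averaged 6.04, against 6.92 to 7.34 in the other 5 libraries, and its oligodendrocyte markers 7.28, against 7.97 to 8.74. Red blood cell markers summed to 119.0 to 132.0 CPM in control and to 38.1, 51.3 and 111.0 CPM in PSCI replicates 1, 2 and 3. Below, the value without PSCI replicate 2 is given where leaving it out moved a fold change by more than 1.5 times. The same holds for counts of at least 3 called genes. Smaller moves are mostly not given, and moves of smaller counts not always. The part of these tissue differences in the results was not tested. The RNA comes from whole tissue, so more or fewer cells of a type and more or less RNA per cell cannot be told apart.

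In PSCI 1144 of the 14840 genes were higher (7.71% of those tested) and 317 were lower (2.14%), together 9.85%, at a Benjamini-Hochberg adjusted p under 0.05 in the quasi-likelihood test of edgeR. These shares are the background against which each gene family below is read. The families were chosen with earlier results of these data known, so the shares are no independent yardstick for them. At least 2-fold changes were reached by 832 of the higher and 45 of the lower genes. The median log2 fold change of all genes tested was -0.0, and other scalings moved it by 0.05 or less. The number of higher genes was 754, 526 and 457 without control replicates 1, 2 and 3, and 1758, 889 and 662 without PSCI replicates 1, 2 and 3. The number of lower genes was 168, 109 and 91 without those controls, 497, 312 and 123 without those PSCI libraries, and 209 without taVNS replicate 1.

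Of 42 gene families, 26 had a mean level in all 3 PSCI libraries above that in all 3 controls, and 5 had a level below it. Single genes were separated upward in 16.2% and downward in 11.3% of all those tested. A mean over many members varies less than a single gene, so these shares are no background for the family levels. Of the 1461 called genes 1460 were separated, and separation was a condition for naming most genes below. That PSCI and control values of a named gene do not overlap is therefore no further result. The PSCI rats were not alike: PSCI replicate 2 had the highest level in 32 families and PSCI replicate 1 the lowest in 33. Of the 1144 higher genes, 77.0% had their highest PSCI value in replicate 2, against 45.1% of all genes tested. In 83.0% of the higher genes the lowest PSCI value was that of replicate 1. The plot of family levels shows this order from mitosis at one end to neuropeptides at the other.

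**Figure D1:**
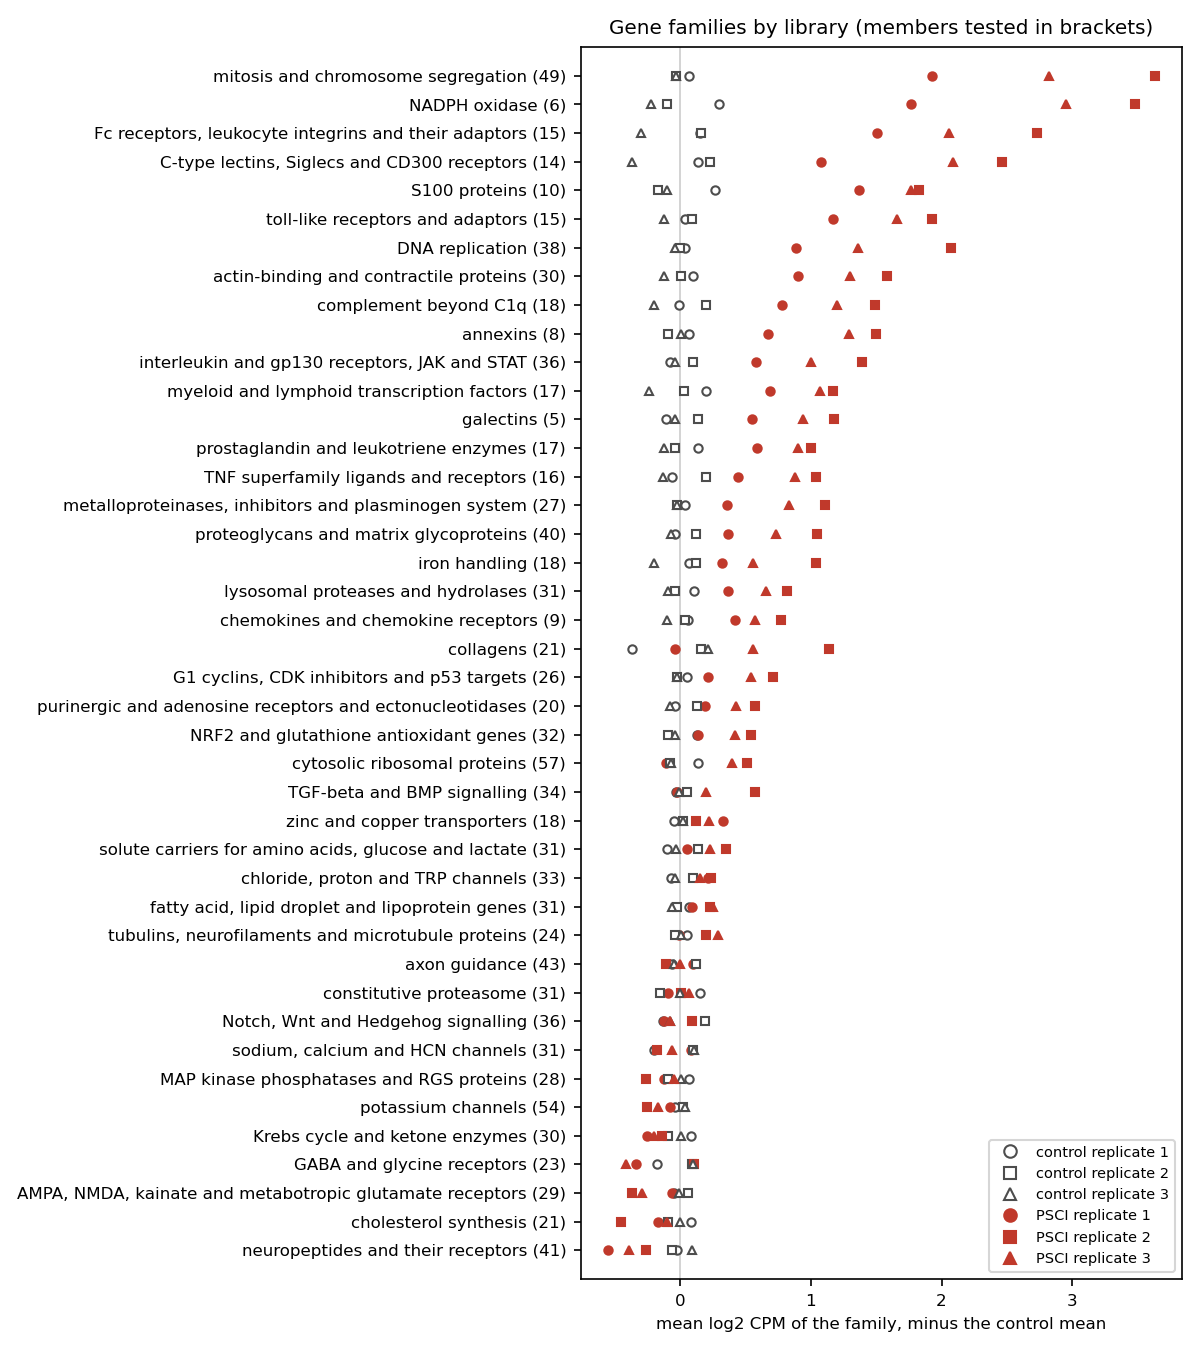
Mean log2 CPM of the members of each gene family in each library, minus the mean of the 3 control libraries, with families sorted by the PSCI mean; open symbols are control and filled symbols PSCI rats. In 26 families all 3 PSCI symbols lie to the right of the control symbols, and in 23 of these the PSCI libraries follow the order replicate 1, replicate 3, replicate 2.

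For some genes counts and RPKM part ways. The deposited counts and the deposited RPKM (reads scaled to gene length and library size) did not give one answer for a set of well-known death, autophagy and inflammation genes. Dividing a gene's count by its RPKM gives a number that depends on gene length and depth, and that should move together in all genes of a library. This was checked library by library, leaving out libraries with fewer than 10 counts or an RPKM under 0.2 for a gene. Counts per RPKM were off by over 0.2 (log2) in a PSCI library and no checked control or taVNS library for 266 of 13892 genes. The same count was 197 of 13751 genes for control libraries and 206 of 13907 for taVNS libraries. All 3 libraries of the group were off for 27 genes in PSCI, for 3 in taVNS and for 0 in control.

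These genes weigh on the top of the list: 19 of the 30 genes with the smallest p had at least 1 PSCI library off. Traf6, an adaptor of receptor signalling, had 419, 432 and 378 counts in control replicates 1 to 3 and 1971, 1933 and 1955 counts in PSCI. Its RPKM was 3.81, 4.29 and 3.77 in control and 11.43, 15.05 and 10.08 in PSCI. The PSCI libraries thus had nearly equal counts while their RPKM differed. Casp9, the initiator caspase of the mitochondrial death pathway, had 586, 613 and 538 counts in control and 2507, 2481 and 2523 in PSCI. Its RPKM values were 18.94, 20.56 and 18.76 in control and 37.44, 35.93 and 36.52 in PSCI. For Casp9 both tables placed all 3 PSCI rats above all 3 controls, with a log2 fold change of 2.00 in counts and 0.91 in RPKM. Gabarapl2, a protein of autophagosome membranes, differed in sign, with 1.85 in counts and -0.29 in RPKM.

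Tirap, an adaptor of toll-like receptors, agreed between the tables when the groups were compared as a whole (2.34 in counts and 2.38 in RPKM). Its PSCI libraries had 376, 388 and 398 counts beside RPKM values of 5.17, 6.34 and 7.44, so that 1 RPKM stood for 72.7, 61.2 and 53.5 counts. The 3 PSCI counts of the 41 higher genes with a library off lay closer together than those of other higher genes. Their median distance from lowest to highest was 0.352 (log2 CPM), against 0.877 in the 1087 higher genes not found to disagree. These 1087 include genes too low to be compared, of which there were 168 among all called genes. For 5 such genes described below the log2 fold change from RPKM with 0.1 added was the smaller by more than 1.5 times in fold, at 4.34 for Clec7a, 3.59 for Ect2, 2.73 for Cybb, 3.26 for Kcnn4 and 3.52 for Sdc1, a scale that understates changes of low genes. In RPKM the medians were 0.539 and 0.952. Which table follows the reads cannot be told from these files, and no size of change of a single gene of this kind is given below. The family counts and medians do include such members. With the genes off by library or by group left out before the adjustment of p, an alternative chosen after seeing the data, 1076 genes were higher and 301 lower.

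**Figure D2:**
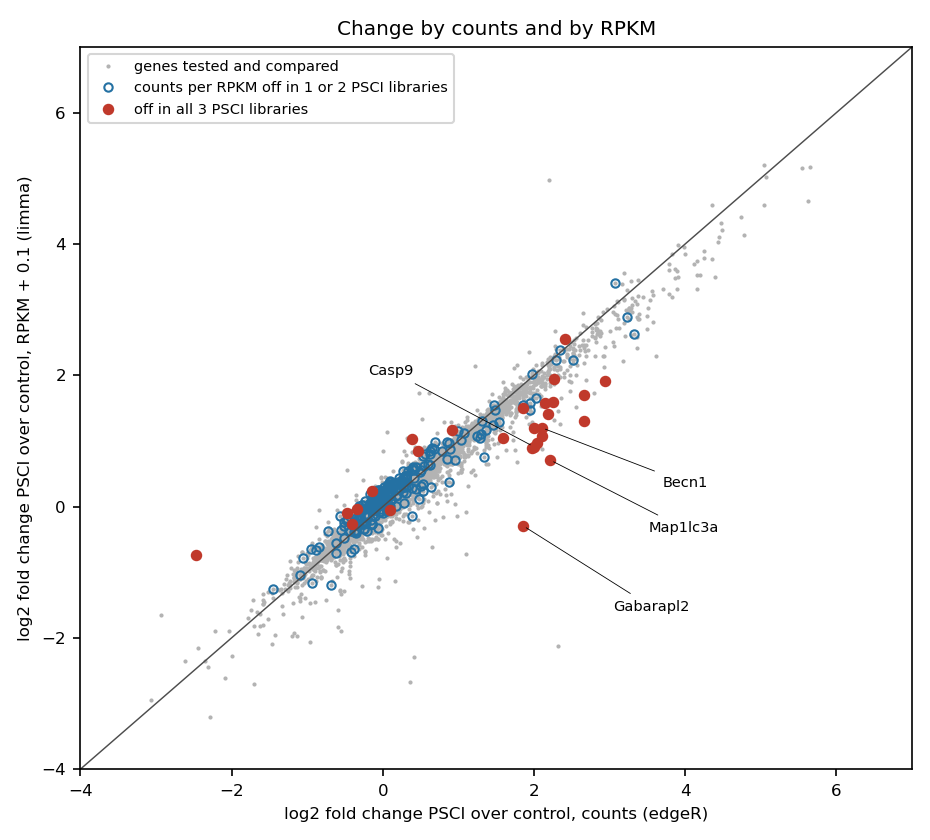
Log2 fold change of PSCI over control from the deposited counts (horizontal axis) and from the deposited RPKM with 0.1 added (vertical axis), 1 point per gene tested in both; the line marks equal values. The filled red points, genes whose counts per RPKM were off in all 3 PSCI libraries, include Casp9, Map1lc3a, Becn1 and Gabarapl2 below the line, at counts-based values near 2.

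Genes of mitosis had the largest median change of the 42 families. Of 49 tested genes of mitosis and chromosome segregation 47 were higher in PSCI and 0 lower, with a median log2 fold change of 3.25, and of 38 DNA replication genes 26 were higher and 0 lower, with a median of 1.24. Mitosis genes act in spindle assembly, chromosome segregation and cytokinesis, and replication genes load the helicase, make deoxynucleotides and copy DNA. The 2 mitosis genes that did not pass were Kif15, a spindle motor (2.99 CPM in control and 8.82 in PSCI, adjusted p = 0.0599), and Anln, a cytokinesis protein that oligodendrocytes also make (120 and 105.0 CPM, adjusted p = 0.473). Both were named because they alone did not pass. Leaving out 1 library gave 37 to 48 higher mitosis genes, and 44 without PSCI replicate 2. The replication count was 15, 9 and 12 without control replicates 1, 2 and 3, 17 without PSCI replicate 3, and 15 when the 6 libraries were fitted alone. Without PSCI replicate 2 it was 20, and the median log2 fold change of the replication genes was 0.85.

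Promoters of these families share short motifs. RefSeq promoter windows of the assembly GRCr8, with 250 bases before and 50 after the annotated start, were matched by gene identifier to 12016 of the genes tested, taking the first listed start of a gene. The letters TTTGAA, the core of the cell cycle genes homology region bound by B-Myb and DREAM complexes, were found on either strand (TTTGAA or TTCAAA) in 64.1% of the 39 mitosis promoters. The share was 6.67% of 30 replication promoters, 11.9% of all tested genes and 18.1% of all 27457 promoters of the table. The letters TTCCCGC, a form of the E2F site, were found on either strand (TTCCCGC or GCGGGAA) in 40.0% of the replication promoters. Their share was 7.69% of mitosis promoters, 7.79% of tested genes and 4.47% of all promoters. The motifs do not overlap in letters, and a match is a description of sequence, not a measured binding site. The genes shown are those with the smallest p in each family, among higher genes with a match in the last 120 bases before the start. The match to the motif of its own family is in capitals, and each sequence ends at the base before the start. The Gins3 sequence also holds TTTGAA, left in lower case.
Ccnb2, chr8:79981659-79981778, minus strand: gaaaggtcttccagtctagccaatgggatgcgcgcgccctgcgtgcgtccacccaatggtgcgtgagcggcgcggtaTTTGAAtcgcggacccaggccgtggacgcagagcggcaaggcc
Cenpa, chr6:31431553-31431672, minus strand: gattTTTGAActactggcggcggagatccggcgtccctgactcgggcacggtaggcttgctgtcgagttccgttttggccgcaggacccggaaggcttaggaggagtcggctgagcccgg
Cdca8, chr5:142483200-142483319, minus strand: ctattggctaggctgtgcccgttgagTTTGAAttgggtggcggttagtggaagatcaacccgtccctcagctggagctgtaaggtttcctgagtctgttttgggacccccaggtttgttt
Mcm5, chr19:13488693-13488812, plus strand: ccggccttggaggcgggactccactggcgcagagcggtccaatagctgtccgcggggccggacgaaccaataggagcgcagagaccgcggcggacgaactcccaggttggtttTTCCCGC
Gins3, chr19:9434680-9434799, minus strand: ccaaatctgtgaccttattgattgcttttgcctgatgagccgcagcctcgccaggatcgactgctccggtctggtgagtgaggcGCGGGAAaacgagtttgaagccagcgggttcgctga

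The genes behind these promoters, which the motif search brought in beside the named genes of each family, were taken from the higher genes. That they were higher in each PSCI rat than in any control is therefore no further result. Ccnb2, a mitotic cyclin, stood at 0.414, 0.496 and 0.882 CPM in control replicates 1 to 3 and at 5.11, 16.6 and 12.6 CPM in PSCI replicates 1 to 3. For Ccnb2 PSCI replicate 1 was lowest of the 3 PSCI rats, as in most families. The change was 19.0-fold (log2 4.25 ± 0.496 SE, adjusted p = 0.00202). Cenpa, the histone of centromeres, went from 0.483, 0.567 and 0.661 CPM to 3.41, 12.9 and 8.35 CPM, a 14.2-fold rise (adjusted p = 0.00302). Cdca8, a subunit of the chromosomal passenger complex, went from 1.31, 0.992 and 0.882 CPM to 4.77, 16 and 9.20 CPM, a 9.34-fold rise (adjusted p = 0.00347). Incenp, the scaffold of the same complex, stood at 17.2, 14.6 and 15.9 CPM in control and reached 32.7, 50.8 and 39.7 CPM, a 2.59-fold rise (adjusted p = 0.00189). Cenpf, a kinetochore protein, had the smallest p among eligible mitosis genes, going from 0.966, 1.27 and 1.47 CPM to 13, 33.3 and 20.2 CPM (17.8-fold, adjusted p = 0.000514). Ect2, which places the cleavage furrow, rose 20.7-fold from 0.617 ± 0.0574 to 12.9 ± 8.60 CPM (SD, n = 3), with a log2 fold change of 4.37 that was 3.70 without PSCI replicate 2.

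Replication genes rose with a similar order of the PSCI rats. Mcm5, a subunit of the replicative helicase, stood at 1.38, 1.56 and 0.808 CPM in control and 12.1, 47.4 and 22.5 CPM in PSCI, a 21.7-fold rise (log2 4.44 ± 0.509 SE, adjusted p = 0.00191; log2 3.78 without PSCI replicate 2). Mcm2 and Mcm3 are further helicase subunits. Mcm3 rose 14.5-fold (log2 3.86, and 3.14 without PSCI replicate 2). Mcm2 went from 4.97, 4.53 and 5.51 CPM to 14.2, 39.2 and 19.3 CPM (4.84-fold, adjusted p = 0.00619). Rrm2, the regulated subunit of ribonucleotide reductase, went from 2.07, 2.55 and 2.50 CPM to 12.1, 59.9 and 31.9 CPM (log2 3.87, and 3.21 without PSCI replicate 2). In each of these genes PSCI and control values did not overlap, as the rule for naming required, and PSCI replicate 2 was the highest rat. Gins3, a helicase cofactor, went from 3.24, 3.12 and 3.97 CPM to 6.0, 6.82 and 6.2 CPM (1.84-fold, adjusted p = 0.0196). Omitting control replicate 1 or 2 or PSCI replicate 3 took its adjusted p to 0.0621, 0.0747 and 0.0586.

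**Figure D3:**
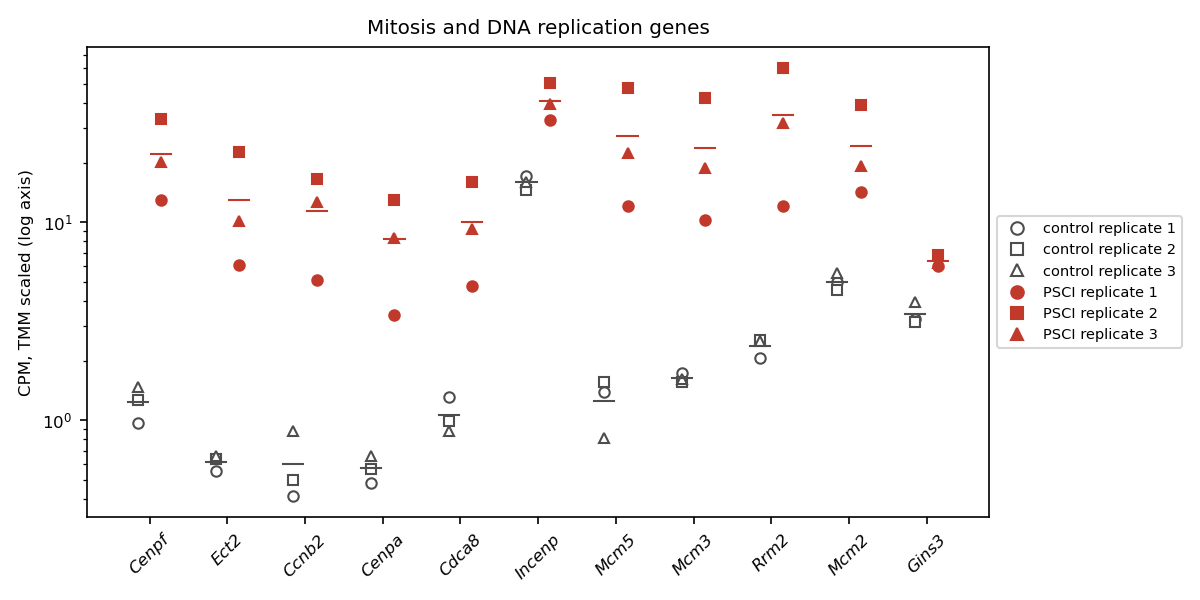
CPM of mitosis and replication genes in the 6 libraries on a log axis; open symbols are control rats, filled symbols PSCI rats and short lines the group means. For each gene all 3 PSCI values lie above all 3 control values, which was a condition for naming most of them. PSCI replicate 1 is lowest and PSCI replicate 2 highest of the PSCI rats.

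Receptors by which phagocytes bind antibody, debris and vessel walls rose together. Of 15 tested Fc receptors, leukocyte integrins and their adaptors 13 were higher and 0 lower, with a median log2 fold change of 2.01. The count was 8 without control replicate 3 and 12 without PSCI replicate 2. The other 2, named after their values were seen, were Fcgr2a (adjusted p = 0.0880) and Itga4 (adjusted p = 0.887). Itgb2, the beta chain shared by leukocyte integrins, stood at 7.59, 7.15 and 7.13 CPM in control and 17.6, 42.0 and 28.8 CPM in PSCI (4.04-fold, adjusted p = 0.00347). Itgal, an alpha chain that pairs with it, went from 0.897, 1.63 and 0.808 CPM to 11.7, 28.7 and 18.0 CPM (17.4-fold, adjusted p = 0.00324). Fcgr3a, a low-affinity antibody receptor, rose 9.10-fold to 10.2, 26.1 and 13.5 CPM, and Vav1, an exchange factor downstream of these receptors, 7.31-fold to 8.72, 24.1 and 14.0 CPM. As the rule for naming required, no PSCI value of these 4 genes fell within the control range.

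Pattern receptors showed the same direction. Of 15 toll-like receptor genes and adaptors 9 were higher and 0 lower (6 without PSCI replicate 2), and of 14 C-type lectins, Siglecs and CD300 receptors 8 were higher and 0 lower. Tlr1, which pairs with other toll-like receptors on the cell surface, stood at 0.897, 0.850 and 0.955 CPM in control and 4.63, 7.01 and 5.35 CPM in PSCI (6.24-fold, adjusted p = 0.00173). Cd180 and its partner Ly86, a receptor pair related to toll-like receptors, rose 5.03-fold and 5.25-fold. Clec7a, the beta-glucan receptor dectin-1, was at 0.207, 0.212 and 0.0735 CPM in control, which is at or under the floor of 3 counts, and at 2.25, 15 and 8.09 CPM in PSCI. Its fitted log2 change of 5.6 was 4.90 without PSCI replicate 2, and its adjusted p of 0.00488 became 0.0527 with limma-voom. Clec4a3, a lectin receptor of myeloid cells, rose 6.12-fold to 7.70, 21.7 and 13.1 CPM. The lectin count was 4 without control replicate 3, 5 with the 6 libraries alone and 4 with limma-voom.

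All 6 tested subunits of the phagocyte NADPH oxidase, the enzyme that makes superoxide, were higher in PSCI, with a median log2 fold change of 2.97. Rac2, its small GTPase, went from 3.31, 2.27 and 1.32 CPM in control to 14.4, 28.9 and 24.1 CPM in PSCI (9.71-fold, adjusted p = 0.00144). Ncf1, a cytosolic subunit, went from 6.35, 4.25 and 4.55 CPM to 13.2, 35.6 and 27.5 CPM. Ncf4, another cytosolic subunit, rose from 0.584 ± 0.516 to 8.94 ± 4.34 CPM, with a log2 fold change of 3.91 that was 4.91 without control replicate 1. Of the membrane subunits, Cyba rose 4.58-fold to 7.63, 19.9 and 13.4 CPM (adjusted p = 0.00923). Cybb, the catalytic membrane subunit, was uneven: control values were 0.414, 0.496 and 0.441 CPM, and PSCI values 0.682, 12.3 and 5.29 CPM. PSCI replicate 1 was thus far below the other 2 PSCI rats for Cybb. Its log2 fold change of 3.74 (adjusted p = 0.0398) was 2.71 without PSCI replicate 2, and its call did not hold without any 1 control library, PSCI replicate 2 or 3, or taVNS replicate 1 or 2, with adjusted p up to 0.135. The call of Cybb was also lost with limma-voom (0.217), with limma on log2(RPKM + 0.1) (0.0919), with the 6 libraries alone (0.0748) and with a replicate block (0.0562). The homologues Nox1, Nox4 and Duox2 had too few counts to be tested.

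**Figure D4:**
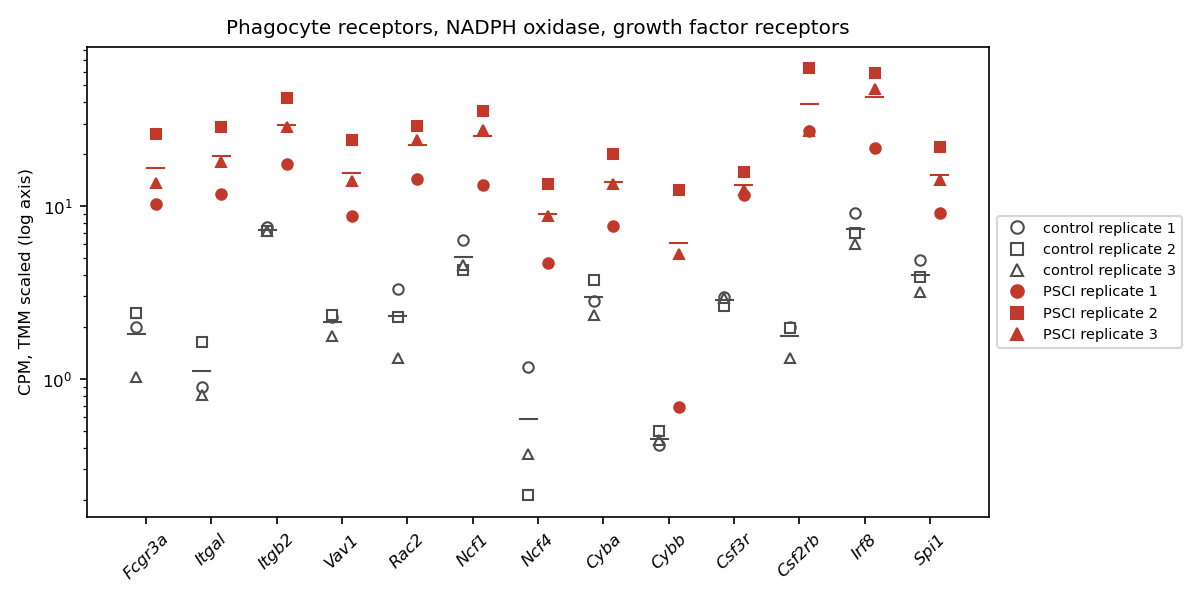
CPM of phagocyte receptors, NADPH oxidase subunits, growth factor receptors and myeloid transcription factors in the 6 libraries on a log axis; open symbols are control rats, filled symbols PSCI rats and short lines the group means. PSCI and control do not overlap for any gene shown, which was a condition for naming most of them. PSCI replicate 1 of Cybb, at 0.682 CPM, lies nearest to its controls.

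Transcription factors that set up myeloid cells were also among the rises. Of 17 myeloid and lymphoid factors 8 were higher and 0 lower, with a median log2 fold change of 0.72, and the count was 4 without control replicate 2 and 5 without control replicate 3. Spi1, the master factor of the lineage also called PU.1, went from 4.90, 3.90 and 3.16 CPM to 9.07, 22.0 and 14.2 CPM (3.77-fold, adjusted p = 0.00690). Irf8, its partner, went from 9.11, 7.01 and 6.02 CPM to 21.7, 59.0 and 47.5 CPM (5.78-fold, adjusted p = 0.00342). Ikzf1 and Fli1, factors of blood cells, rose 3.59-fold and 2.80-fold. Microglia and myeloid cells of the blood share these genes. Of 11 tested microglial markers 6 were higher, and the markers summed to 339 to 419 CPM in control and 637 to 1030 CPM in PSCI. Of 15 markers of T and B cells 4 passed the filter and 8 had no count in control, with sums of 4.81 to 10.9 CPM in control and 14.6 to 28.8 CPM in PSCI. The 9 neutrophil markers summed to 2.98 to 3.41 CPM in control and 11.9 to 19.7 CPM in PSCI. Most of that sum was 1 gene, Csf3r, at 2.62 to 2.97 CPM in control and 11.5 to 15.8 CPM in PSCI. Of the 9 neutrophil markers Csf3r alone could be tested, Elane had no count in any of the 6 libraries, and S100a8 and S100a9 were too low to test. The part of entering cells in the myeloid genes was not tested.

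Growth factor and cytokine receptors of the gp130 and JAK-STAT pathway had 15 of 36 members higher and 0 lower, with a median log2 fold change of 0.79. Csf3r, the receptor for granulocyte colony-stimulating factor, stood at 2.97, 2.62 and 2.94 CPM in control and 11.5, 15.8 and 12.3 CPM in PSCI (4.63-fold, log2 2.21 ± 0.203 SE, adjusted p = 0.000632). Csf2rb, the beta chain of the receptors for interleukin-3, interleukin-5 and GM-CSF, went from 2.00, 1.98 and 1.32 CPM to 27.0, 62.6 and 27.0 CPM (21.8-fold, adjusted p = 0.00127). Jak3, the kinase of the common gamma chain, rose 2.82-fold to 23.0, 27.9 and 18.3 CPM (adjusted p = 0.00591). Socs3, a feedback inhibitor of the pathway, went from 1.04, 1.27 and 0.882 CPM to 9.88, 59.2 and 19.6 CPM, with a log2 fold change of 4.78 that was 3.78 without PSCI replicate 2. Its adjusted p was 0.00367 with edgeR and 0.0584 with limma-voom. The count of 15 moved with the libraries, to 7, 5 and 6 without control replicates 1, 2 and 3, and to 23, 8 and 8 without PSCI replicates 1, 2 and 3. DESeq2 called 23 of these genes and limma-voom 9.

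Tumour necrosis factor and chemokine genes are secreted or membrane-bound signals and their receptors. Of 16 tumour necrosis factor superfamily genes 5 were higher and 0 lower, and of 9 chemokines and chemokine receptors 3 were higher and 1, Cxcl12, lower. The counts of higher genes fell to 1 in both families without control replicate 3, and that of the tumour necrosis factor superfamily was 3, 2 and 3 without control replicate 1, control replicate 2 and PSCI replicate 3. Tnfsf13b, the B cell survival factor BAFF, stood at 0.483, 0.212 and 0.588 CPM in control and 2.66, 3.76 and 3.65 CPM in PSCI (7.73-fold, adjusted p = 0.00543). The receptors Tnfrsf1a, Ltbr and Cd40 rose 4.03-fold, 2.14-fold and 4.74-fold, and none of the 3 kept its call without control replicate 2 or 3 (adjusted p up to 0.0604, 0.0844 and 0.138). Ltbr also lost it without PSCI replicate 3, and Cd40 without control replicate 1, PSCI replicate 2 or 3 or taVNS replicate 2. Counts per RPKM were off in a PSCI library for the fifth, Tnfrsf1b. Cxcl16, a chemokine made as a membrane protein, rose 5.72-fold to 7.84, 22.4 and 14.0 CPM (adjusted p = 0.00632). The chemokine receptor Cxcr4 rose 2.34-fold, and lost its call without control replicate 2 or 3 or PSCI replicate 3 (up to 0.0630). For Cxcl12 counts per RPKM were off in a PSCI library. Among 17 enzymes of prostaglandins and leukotrienes 6 were higher, led by Pla2g4a, the phospholipase that frees arachidonic acid, which went from 5.80, 6.09 and 3.97 CPM to 14.5, 22.4 and 18.2 CPM (3.47-fold, adjusted p = 0.00226). That count was 2 without any 1 control library, 3 without PSCI replicate 3, and 3 with limma-voom or the 6 libraries alone.

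Complement beyond the C1q chains had 9 of 18 members higher and 0 lower, and the count was 5 without control replicate 3. C1s, a protease of the first component, went from 6.63, 10.2 and 6.54 CPM to 29.4, 41.4 and 34.7 CPM (4.51-fold, adjusted p = 0.00784). C5ar1, the receptor for the chemotactic fragment C5a, went from 1.10, 1.13 and 1.03 CPM to 3.34, 10.2 and 7.31 CPM (6.34-fold, adjusted p = 0.00655). A protease and a receptor of complement were thus both among the higher genes.

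Of 31 lysosomal genes 14 were higher and 0 lower, with a median log2 fold change of 0.48. Ctsz, a carboxypeptidase of the lysosome, went from 15.7, 12.3 and 9.55 CPM to 60.6, 126.0 and 86.2 CPM (7.26-fold, adjusted p = 0.00104), and Ctsc, which activates serine proteases of immune cells, rose 7.17-fold to 20.1, 52.6 and 33.1 CPM. Grn, the lysosomal growth factor progranulin, rose 2.87-fold from 54.6 ± 2.70 to 157.0 ± 53.2 CPM. Ctsh, an aminopeptidase, rose 1.83-fold and was nearly equal in the PSCI rats, at 89.3, 84.0 and 84.2 CPM. The count of 14 fell to 9, 5 and 4 without control replicates 1, 2 and 3, to 8 without PSCI replicate 3 and to 9 with the 6 libraries alone, while the 4 genes named kept their calls in all these fits.

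Actin-binding and contractile proteins rose as a family, with 17 of 30 higher and 0 lower and a median log2 fold change of 0.86. The count stayed between 12 and 21 when any 1 library was left out. Tagln, an actin cross-linker of smooth muscle and reactive cells, had the smallest p among the members of the 42 families. It stood at 10, 9.0 and 5.07 CPM in control and 144.0, 117.0 and 99.7 CPM in PSCI (14.9-fold, log2 3.90 ± 0.257 SE, adjusted p = 7.2e-05). Myl9, a myosin light chain, went from 6.76, 6.23 and 5.14 CPM to 26.5, 32.1 and 29.5 CPM (4.85-fold, adjusted p = 0.000232). For Tagln PSCI replicate 1 was the highest of the 3, unlike in most families. Cnn2, a calponin, rose 7.40-fold to 22.5, 50.0 and 37.5 CPM, and Lsp1, an actin-binding protein of leukocytes, rose to 13.2, 33.3 and 31.3 CPM. Markers of endothelium and pericytes, some of which are contractile cells, summed to 185 to 351 CPM in control and 373 to 444 CPM in PSCI, and their part in the result was not tested.

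S100 proteins and annexins bind calcium. Of 10 S100 proteins 5 were higher and 0 lower, and of 8 annexins, which bind membranes when calcium is present, 4 were higher and 0 lower. S100a4, a cytosolic partner of myosin, went from 3.66, 1.91 and 1.47 CPM to 72.1, 59.1 and 103.0 CPM (33.0-fold, log2 5.04 ± 0.417 SE, adjusted p = 0.000333). S100a3, another member, rose 4.90-fold to 6.07, 11.7 and 9.40 CPM. S100a10, a partner of annexin A2, rose 6.80-fold to 19.4, 87.7 and 56.7 CPM (adjusted p = 0.00979, and up to 0.0517 without control replicate 2 or 3). Counts and RPKM did not agree for S100a11, nor in a PSCI library for S100a6, so their sizes are not given. S100b, an abundant astrocyte member, was at 1080.0 CPM in controls and 580.0 CPM in impaired rats without passing the test (adjusted p = 0.0981), and was named after its values were seen. Anxa3 rose 3.41-fold from 46.6 ± 8.18 to 159.0 ± 34.5 CPM (adjusted p = 0.00107), and Anxa5 1.91-fold from 39.7 ± 4.67 to 75.7 ± 10.3 CPM (adjusted p = 0.00642). Anxa1 and Anxa2 rose 10.3-fold and 9.51-fold, but both calls did not hold without any 1 control library (adjusted p up to 0.0670 and 0.0774) and with limma-voom, so that the annexin count was 2 in those fits. The log2 fold change of Anxa2 was 3.25, and 2.62 without PSCI replicate 2.

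Among tubulins and microtubule proteins 3 of 24 were higher and 2 lower. Tuba1c, a tubulin of dividing and immature cells, went from 3.73, 3.33 and 2.42 CPM to 35.0, 117.0 and 58.9 CPM (22.1-fold, adjusted p = 0.00256). Tubb2b and Tubb6, beta tubulins, rose 2.87-fold and 17.9-fold. Tubb6 stood at 6.27, 94.6 and 54.6 CPM in the 3 PSCI rats, and its log2 fold change of 4.16 was 3.39 without PSCI replicate 2. The calls of both did not hold without any 1 control library (adjusted p up to 0.0550 and 0.0863), and that of Tubb6 also without PSCI replicate 3, so that 1 higher gene was left in the fits without a control. With limma-voom the adjusted p of Tubb6 was 0.199. The 2 genes that fell, Nefm, a neurofilament subunit (358.0, 295.0 and 389.0 CPM in control and 264.0, 178.0 and 215.0 CPM in PSCI), and Stmn4, a microtubule regulator of neurons (1.33-fold), both lost their calls without control replicate 1 or 3, PSCI replicate 2 or 3, or taVNS replicate 1 or 3, with adjusted p up to 0.136 and 0.146. Stmn4 lost it also without control replicate 2.

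Extracellular matrix genes moved in both directions. Of 40 proteoglycans and matrix glycoproteins 10 were higher and 2 lower, and of 21 collagens 4 were higher and 2 lower. Sdc1, a cell surface proteoglycan, went from 0.690, 0.708 and 0.661 CPM to 3.61, 20.4 and 14.9 CPM (18.7-fold, adjusted p = 0.00422, and 0.0587 with limma-voom). Fn1, fibronectin, went from 12.5, 28.8 and 24.3 CPM to 81.7, 234.0 and 131.0 CPM (6.80-fold, adjusted p = 0.0113, and 0.0509 without control replicate 3). Cd44, the hyaluronan receptor, went from 16.8, 12.9 and 10.2 CPM to 27.9, 154.0 and 60.8 CPM. Its log2 fold change of 2.60 was 1.74 without PSCI replicate 2, and its call did not hold without control replicate 2 or 3 (up to 0.0731) and with limma-voom or the 6 libraries alone. Within the lecticans of perineuronal and perisynaptic matrix, Ncan, neurocan, rose 2.44-fold to 176.0, 326.0 and 379.0 CPM (adjusted p = 0.0146, lost without control replicate 1 or 3, up to 0.0674). Bcan, brevican, fell 1.56-fold from 480.0, 521.0 and 405.0 CPM to 319.0, 257.0 and 323.0 CPM (adjusted p = 0.0136, lost without control replicate 2 at 0.0546 and with the 6 libraries alone at 0.0518). Neurocan and brevican, close relatives that bind hyaluronan, thus had opposite directions in all 3 PSCI rats. The meninges and fibroblast markers, which also make matrix, summed to 78.0 to 106.0 CPM in control and to 101.0, 424.0 and 114.0 CPM in PSCI, and without PSCI replicate 2 the matrix family had 8 higher genes. Its count was 4, 3 and 1 without control replicates 1, 2 and 3, 16 without PSCI replicate 1, 5 without PSCI replicate 3, 17 with DESeq2 and 4 with limma-voom.

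Col4a1, a chain of the basement membrane collagen, went from 36.2, 63.7 and 58.5 CPM to 94.9, 110.0 and 141.0 CPM (2.18-fold, adjusted p = 0.0121) and kept its call without any 1 library. Col11a1, Col15a1 and Col18a1 rose 2.36-fold, 6.31-fold and 2.16-fold. The first lost its call without control replicate 2 (0.0520) and the second without control replicate 3 (0.0503). The call of Col18a1 did not hold without any 1 control, PSCI replicate 2 or 3, or taVNS replicate 1 (up to 0.141). Col25a1, a membrane collagen of neurons, fell 2.10-fold from 187.0, 188.0 and 229.0 CPM to 94.4, 91.6 and 102.0 CPM (adjusted p = 0.000936). Col27a1, a fibrillar collagen, fell 2.22-fold, a call that did not hold without control replicate 2 or 3 or PSCI replicate 3 (up to 0.0740). The count of higher collagens was 2 without control replicate 2 or 3 and 7 without PSCI replicate 1.

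Matrix proteases and their inhibitors had 8 of 27 members higher and 1 lower. Mmp19 and Mmp2, metalloproteinases, rose 14.9-fold and 2.67-fold, to 5.52, 20.1 and 10.7 CPM and to 15.5, 23.4 and 23.0 CPM. Adam12, a membrane protease, rose 2.30-fold from 7.94 ± 0.945 to 18.2 ± 2.22 CPM (adjusted p = 0.00448). Serpina3n, a protease inhibitor of reactive astrocytes, went from 1.86, 1.63 and 1.91 CPM to 15.1, 21.6 and 38.2 CPM (13.8-fold, adjusted p = 0.00627), with PSCI replicate 3 highest. Serpine2, an inhibitor of thrombin and plasminogen activators also called nexin-1, fell 1.37-fold from 201.0 ± 16 to 147.0 ± 12.5 CPM, with an adjusted p of 0.0243. The call did not hold without control replicate 1 or 2 or PSCI replicate 3 (up to 0.0722). The count of 8 was 4 without control replicate 2 or 3, 5 without PSCI replicate 2 or 3, and 5 with limma-voom.

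Genes of antioxidant defence and metal handling had calls in 1 direction. Of 32 targets of NRF2 and glutathione genes 8 were higher and 0 lower, and of 18 iron genes 4 were higher and 0 lower. Mgst1, a membrane glutathione transferase, went from 4.07, 2.69 and 4.04 CPM to 13, 13 and 14.8 CPM (3.76-fold, log2 1.91 ± 0.203 SE, adjusted p = 0.00136). Gpx1, which reduces hydrogen peroxide, went from 30.8, 27.2 and 22.0 CPM to 56.9, 92.7 and 82.2 CPM (2.90-fold, adjusted p = 0.00275), and Prdx4, a peroxiredoxin of the secretory pathway, rose 1.77-fold. Hmox1, heme oxygenase 1, rose 5.43-fold to 9.41, 38.0 and 31.5 CPM, with adjusted p = 0.0112 that did not hold without control replicate 2 or 3 (up to 0.0570) and with limma-voom (0.0690). Cp, the ferroxidase ceruloplasmin, went from 8.01, 7.15 and 4.85 CPM to 43.0, 122.0 and 43.8 CPM, with a log2 fold change of 3.38 and of 2.70 without PSCI replicate 2. Slc11a1, the iron transporter of phagosomes, rose 5.70-fold. Tf, transferrin, rose 3.33-fold from 627.0, 457.0 and 388.0 CPM to 1330.0, 1280.0 and 2300.0 CPM (adjusted p = 0.00893, and 0.0514 without control replicate 3). The fourth iron gene, Aco1, the iron-sensing aconitase, rose 1.30-fold (adjusted p = 0.0413), and its call did not hold without any 1 library but PSCI replicate 1 (up to 0.148). The antioxidant count was 5, 3 and 3 without control replicates 1, 2 and 3, and 5 without PSCI replicate 3 or with the 6 libraries alone, and the iron count was 2 without control replicate 3.

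Lipid genes moved in both directions. Of 31 fatty acid, lipid droplet and lipoprotein genes 6 were higher and 4 lower, and of 21 cholesterol synthesis genes 0 were higher and 2 lower. Fabp7, a fatty acid carrier of radial glia and astrocytes, went from 71.4, 59.3 and 77.5 CPM to 152.0, 337.0 and 241.0 CPM (3.51-fold, adjusted p = 0.00376). Plin2 and Plin3, coats of lipid droplets, rose 3.84-fold and 4.0-fold, to 14.0, 61.9 and 45.9 CPM and to 3.95, 8.54 and 5.74 CPM. Neither kept its call without control replicate 1 or 3 (up to 0.102 and 0.0737), and Plin2 did not without control replicate 2 or PSCI replicate 2 or 3 either. Apoe, the main apolipoprotein of the brain, fell 1.80-fold from 3110.0, 2670.0 and 2380.0 CPM to 1480.0, 1600.0 and 1450.0 CPM (log2 -0.85 ± 0.131 SE, adjusted p = 0.00597). The 3 PSCI values of Apoe were close together and far from the controls. Apoc1, another apolipoprotein, fell from 10.3, 5.88 and 8.30 CPM to 2.32, 0.828 and 1.63 CPM (5.11-fold, adjusted p = 0.0130, and 0.0517 without control replicate 3). Msmo1, a sterol oxidase of cholesterol synthesis that was counted with the lipid genes, fell 1.64-fold (adjusted p = 0.0149, and 0.0552 without control replicate 3). Sc5d and Hmgcs1, the 2 genes that passed in the cholesterol synthesis list, fell 1.44-fold and 1.47-fold, and the adjusted p of each rose above the threshold without any 1 control library or taVNS replicate 1, up to 0.109 and 0.134. Hmgcs1 lost its call also without PSCI replicate 1 or 2 and taVNS replicate 2 or 3. Cyp46a1, the neuronal enzyme that turns cholesterol over, fell 1.45-fold, a call that did not hold without any 1 control library or PSCI replicate 2 or 3 (up to 0.0955). The count of higher lipid genes was 2, 3 and 1 without control replicates 1, 2 and 3, 2 without PSCI replicate 2 or 3 and 2 with the 6 libraries alone, and that of lower ones was 1 without control replicate 3.

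The lower genes described next are members of the families or have small p among the falls. Of the 317 lower genes, 43.2% had their lowest PSCI value in replicate 2, against 32.4% of all genes tested. Sparcl1, a synapse-organising protein secreted by astrocytes, fell from 2620.0, 2840.0 and 2820.0 CPM to 1620.0, 1830.0 and 1410.0 CPM (1.70-fold, adjusted p = 0.0102). Agt, angiotensinogen, which astrocytes make in brain, fell from 212.0, 199.0 and 202.0 CPM to 88.2, 64.0 and 46.1 CPM (3.10-fold, adjusted p = 0.00276). Mfge8, which bridges dying cells to phagocytes, fell from 148.0, 161.0 and 149.0 CPM to 70.3, 88.4 and 66.1 CPM (2.04-fold, adjusted p = 0.00256). Ttpa, the carrier of vitamin E, fell 2.22-fold from 14.1 ± 0.786 to 6.36 ± 0.538 CPM (adjusted p = 0.00221). In each of these genes the highest PSCI value was below the lowest control value, as the rule for naming required.

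Lix1 fell 2.21-fold from 201.0, 196.0 and 186.0 CPM to 101.0, 75.8 and 86.6 CPM (adjusted p = 0.000810). Tlcd1, a membrane lipid regulator, fell 3.18-fold from 12.8, 11.8 and 11.8 CPM to 3.54, 3.82 and 4.05 CPM (adjusted p = 0.000419). Gpc5, a glypican, fell 2.27-fold to 22.7 ± 4.68 CPM, Luzp2 1.68-fold to 78.7 ± 11.4 CPM and Enho, the peptide adropin, 1.73-fold to 28.4 ± 1.65 CPM. Each of these 9 falls kept its call when any 1 of the 9 libraries was left out. Astrocyte markers as a list did not fall: 2 of 11 were higher and 0 lower, with 3 separated upward and 2 downward and a median log2 fold change of 0.19. The mean level of the list overlapped between the groups, at 7.27 to 7.75 log2 CPM in control and 7.65 to 7.94 in PSCI. Its summed level, which the most abundant members set, was 3110.0 to 4270.0 CPM in control and 7570.0 to 11900.0 CPM in PSCI.

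**Figure D5:**
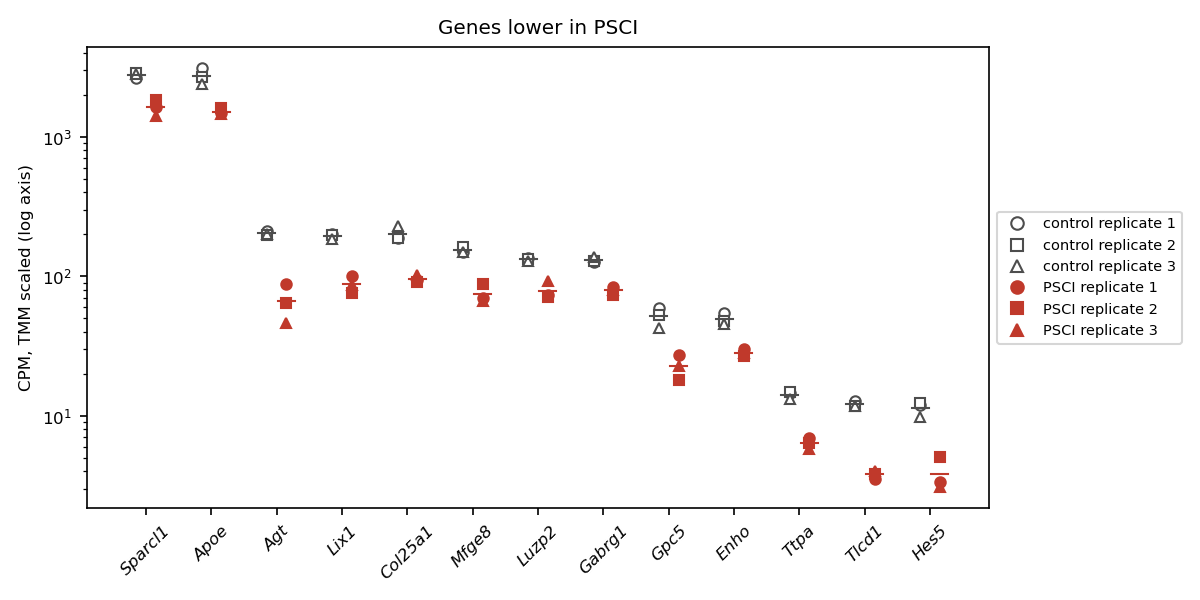
CPM of genes lower in PSCI in the 6 libraries on a log axis; open symbols are control rats, filled symbols PSCI rats and short lines the group means. Every PSCI value lies below every control value of its gene, for example 46.1 to 88.2 against 199.0 to 212.0 CPM for Agt. This was a condition for naming most of the genes. PSCI replicate 2 holds no fixed place among the 3.

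Among 36 genes of the Notch, Wnt and Hedgehog pathways 0 were higher and 4 lower, 3 of them transcription factors that Notch switches on. Hes5, the Notch target of neural stem cells and astrocytes, fell from 11.9, 12.3 and 9.77 CPM to 3.34, 5.03 and 3.07 CPM (2.97-fold, log2 -1.57 ± 0.207 SE, adjusted p = 0.00326). Heyl fell 2.36-fold to 7.02, 12 and 6.92 CPM and Hey1 1.34-fold to 30.9, 35.5 and 38.8 CPM, with adjusted p of 0.0398 and 0.0370. Fzd9, a Wnt receptor, fell 1.66-fold (adjusted p = 0.0348). Of these 4, Hes5 alone kept its call without any 1 library. Heyl lost it without any 1 control, PSCI replicate 1 or 3 or taVNS replicate 1 (up to 0.128), Hey1 without any 1 library but PSCI replicate 3 (up to 0.116) and Fzd9 without any 1 library but PSCI replicate 1 (up to 0.109). The count of lower genes was 1 without any 1 control or taVNS replicate 1, and 2 without PSCI replicate 2 or 3, taVNS replicate 2 or 3 or with the 6 libraries alone.

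Receptors and channels of neurons showed few calls. Of 29 glutamate receptor genes 0 were higher and 1 lower, of 23 GABA and glycine receptor genes 0 and 1, of 54 potassium channels 1 and 3, and of 41 neuropeptides and their receptors 0 and 1. These counts stand beside the background of 7.71% higher and 2.14% lower. Gabrg1, a GABA receptor subunit also found in astrocytes, fell from 126.0, 129.0 and 137.0 CPM to 83.6, 73.9 and 79.9 CPM (1.65-fold, adjusted p = 0.00376) and kept its call without any 1 library. Kcnc2, a fast potassium channel of interneurons, fell 1.53-fold from 70.5, 89.3 and 86.0 CPM to 58.0, 48.4 and 54.6 CPM (adjusted p = 0.00966, and 0.0510 without control replicate 3). Shisa9, an auxiliary protein of AMPA receptors, fell 1.61-fold, a call that did not hold without control replicate 2 or 3 or PSCI replicate 1 or 3 (up to 0.101). Without PSCI replicate 2, the rat with the lowest neuron markers, 5 glutamate receptor genes and 2 GABA and glycine receptor genes were called lower. Adcyap1r1, the receptor for the peptide PACAP, fell 1.67-fold from 276.0, 317.0 and 290.0 CPM to 193.0, 208.0 and 129.0 CPM (adjusted p = 0.0233), a call that did not hold without any 1 control library (up to 0.0811) and with the 6 libraries alone. The level of the whole neuropeptide family was 3.69 to 3.84 log2 CPM in control and 3.20 to 3.49 in PSCI. Glutamate receptors also lay lower as a family, at 6.04 to 6.15 in control and 5.72 to 6.03 in PSCI. So did potassium channels, at 5.42 to 5.5 and 5.21 to 5.38. GABA and glycine receptors overlapped, at 5.6 to 5.88 and 5.37 to 5.89. The log2 fold change was above 0 in 10 of the 29 glutamate receptor genes, 6 of the 23 GABA and glycine receptor genes and 15 of the 54 potassium channels.

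The other potassium channels that passed were Kcnn4, a calcium-activated channel of immune cells, which was higher, and Kcnt2 and Kcnk4, which fell 1.57-fold and 1.47-fold. Kcnn4 had 0.276, 0.0 and 0.220 CPM in control, at or near the floor of 3 counts, and 0.886, 6.56 and 3.0 CPM in PSCI. Its call did not hold without any 1 control library or PSCI replicate 3 (up to 0.0801), and its fitted log2 change of 4.33 was 3.49 without PSCI replicate 2. Kcnt2 lost its call without any 1 library but control replicate 1 or PSCI replicate 1 (up to 0.168). Kcnk4 lost it without any 1 library but PSCI replicate 2 or taVNS replicate 2 (up to 0.131). The count of lower potassium channels was 7 without PSCI replicate 1, 0 without control replicate 3, and 1 without control replicate 2, PSCI replicate 3, or taVNS replicate 1 or 3.

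Among 30 enzymes of the Krebs cycle and of ketone use 0 were higher and 5 lower. These were Sucla2, a subunit of succinyl-CoA synthetase (1.34-fold lower), Got1, the cytosolic aspartate transaminase (1.45-fold), Pdha1, a subunit of pyruvate dehydrogenase (1.30-fold), Mdh1, the cytosolic malate dehydrogenase (1.34-fold), and Idh3a, a subunit of isocitrate dehydrogenase (1.25-fold). The falls were small and even, as in Sucla2, with 178.0, 158.0 and 189.0 CPM in control and 132.0, 129.0 and 131.0 CPM in PSCI (adjusted p = 0.0179). None of the 5 kept its call when control replicate 1 or 3 or PSCI replicate 3 was omitted, which left 0 lower genes each time, nor with the 6 libraries alone. Without control replicate 2, PSCI replicate 2 or taVNS replicate 1 the count was 3, and DESeq2 called 10.

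Among genes outside these families, rises with small p included Aspg, an asparaginase, which went from 0.414, 0.637 and 0.294 CPM to 14.0, 30 and 16.3 CPM (43.9-fold, log2 5.46 ± 0.417 SE, adjusted p = 0.000196). A2m, the plasma protease inhibitor alpha-2-macroglobulin, went from 24.1, 21.9 and 17.8 CPM to 137.0, 221.0 and 191.0 CPM (8.61-fold, adjusted p = 0.000182). Tspo, a mitochondrial membrane protein used as an imaging target of reactive glia, went from 2.14, 1.84 and 1.40 CPM to 19.5, 36.1 and 29.5 CPM (15.7-fold, adjusted p = 0.000419). Parp3, an ADP-ribosyl transferase of DNA repair, rose 4.78-fold to 11.3, 19.3 and 17.0 CPM. All 4 kept their calls without any 1 library.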

How the data were processed

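The authors deposited expected counts per gene and RPKM, both for each of 9 libraries. HISAT2 2.0.4, RSEM 1.2.8 and the build mRatBN7.2 stand in the submitters' processing notes; annotation, filters and strand setting are not given in the sources used here. The estimated counts were rounded. Genes kept by filterByExpr (14840) were scaled by TMM and tested with edgeR 4.0.16 in R 4.3.3 (glmQLFit, glmQLFTest), with 1 coefficient per group over the 9 libraries and 6 residual degrees of freedom. P-values measure the spread between rats; adjusted p is Benjamini-Hochberg. Levels are TMM-scaled CPM; marker sums are plain CPM. RPKM was tested with limma 3.58.1 on log2(RPKM + 0.1), a scale that understates changes of low genes. On simulated counts 56.1% of 98 genes changed by 1 (log2) and 85% of 100 changed by 2 were recovered, and 7 unchanged genes were called. The simulation changed only these genes and gave every group the same spread, so its rates need not hold for the PSCI rats. Floors cover counting error only.

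The comparison, the 42 families (1192 genes found) and the 15 marker lists were chosen with earlier results of these data known. Named genes were separated between the groups, at least 1 CPM in the higher group, and alike in counts and RPKM within 0.25 (log2) where they could be compared. Aspg, Ccnb2, Cd40, Cenpa, Clec7a, Cybb, Ect2, Hvcn1, Kcnn4, Ncf4, Sdc1 and Tnfsf13b were too low in control for that comparison, so the tables were not shown to agree for them, and their folds are uncertain. They are the 4 with the smallest p per family and direction (in families with fewer than 2 such genes also the 2 with the highest CPM), members of families of up to 12 genes, and rises and falls outside the families with the smallest p or highest CPM. Members that complete a count of 5 or fewer or a promoter set were added after their values were seen. RefSeq promoters (GRCr8) were matched by identifier, and only upstream bases are printed. Some members of the families are not reported here by name.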

Additional observations from a re-analysis of the deposited data

How the results depend on the processing

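Fitted on the 6 libraries alone, 693 genes were higher and 113 lower. DESeq2 called 1546 higher and 711 lower genes, and limma-voom 885 higher and 273 lower. Of the genes named, 28 lost their calls with limma-voom and 41 with the 6 libraries alone, and not every such loss is given above. Limma on log2 RPKM called 1133 higher and 174 lower (0.1 added), and 1085 higher and 163 lower (1 added). A replicate block left 875 higher and 209 lower. Leaving out 1 library gave 457 to 1758 higher and 91 to 497 lower genes. The labels do not say that replicate numbers pair the rats. Correlations of deviations from the group means ran from -0.468 to 0.255 for same-numbered libraries and from -0.388 to 0.458 for others. With 3 rats a group these ranges cannot tell whether rats were paired. Without the genes whose counts and RPKM disagree between groups 1099 were higher and 308 lower, and without those off in a single PSCI library too 1076 and 301. The precision is limited by 3 rats a group, the spread among PSCI rats and the floor of 3 counts. Itga4, not called, ran from -0.18 (without control replicate 1) to 0.27 (without PSCI replicate 3) on the log2 scale, and was -0.15 without PSCI replicate 2.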

Other observations

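Further families gave small counts, beside the background of 7.71% higher and 2.14% lower genes. Of 34 TGF-beta and BMP genes 3 were higher and 1 lower. Tgfb1, the ligand, rose 2.93-fold to 7.50, 20.1 and 15.7 CPM, and its receptors Tgfbr1 and Tgfbr2 rose 1.68-fold and 2.62-fold. The calls of all 3 did not hold without control replicate 3 and PSCI replicate 3, those of the first and second also without control replicate 2, and that of the third without control replicate 1 (adjusted p up to 0.0778, 0.0742 and 0.0971). The count of higher genes was 6 without PSCI replicate 1, and that of lower genes was 2 without PSCI replicate 2. Bmp4, a ligand of the other branch, fell 2.23-fold from 16.4, 11.8 and 8.15 CPM to 4.77, 5.03 and 6.46 CPM, a call that did not hold without control replicate 1 or 2, any 1 PSCI library or taVNS replicate 1 (up to 0.110). Among 43 axon guidance genes Plxnb2, a semaphorin receptor, rose 2.14-fold, a call that did not hold without any 1 control library (up to 0.0689), and Sema3d, a secreted semaphorin, rose 1.61-fold, a call that did not hold without any 1 of the 9 libraries (up to 0.104).

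Carriers of nutrients gave calls in both directions. Of 31 carriers of amino acids, glucose and lactate 5 were higher and 2 lower. Slc16a3, a lactate exporter, rose 4.96-fold from 0.828, 0.850 and 0.588 CPM to 2.66, 4.84 and 3.85 CPM (adjusted p = 0.00422), and Slc7a7, an amino acid exchanger of macrophages, 3.77-fold to 3.20, 7.14 and 5.48 CPM (adjusted p = 0.00974), both called without any 1 library. Slc2a5, the fructose carrier of microglia, and Slc3a2, a chain of amino acid exchangers, rose 2.61-fold and 1.36-fold and lost their calls without control replicate 2 or 3 (up to 0.0590 and 0.0846). Slc1a5, a glutamine carrier, rose 3.81-fold, a call that did not hold without any 1 control, PSCI replicate 2 or 3 or taVNS replicate 2 (up to 0.122). Slc7a10, a serine carrier of astrocytes, fell 1.91-fold, a call that did not hold without any 1 control, PSCI replicate 1 or 2 or taVNS replicate 1 (up to 0.111). The count of higher carriers was 2 without control replicate 2 or 3 and 3 with the 6 libraries alone.

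Of 20 purinergic genes 4 were higher and 1 lower. P2ry6, the UDP receptor of phagocytic microglia, rose 2.89-fold from 3.66, 4.18 and 3.01 CPM to 7.77, 14.6 and 9.07 CPM (adjusted p = 0.00896) and was called without any 1 library. P2ry14, a UDP-sugar receptor, rose 2.63-fold (adjusted p = 0.0130, and 0.0630 without control replicate 3), and Nt5e and Entpd1, which break nucleotides down to adenosine, rose 2.03-fold and 1.75-fold. P2ry4, a UTP receptor, fell 1.56-fold. The calls of the last 3 did not hold without any 1 control, PSCI replicate 2 or 3 or taVNS replicate 1 (up to 0.145, 0.134 and 0.127), those of Entpd1 and P2ry4 also without taVNS replicate 2 or 3, and the count of higher genes was 1 without control replicate 3 and 2 without the other controls, PSCI replicate 2 or 3 or taVNS replicate 1. Among 33 chloride, proton and TRP channels Clic1, a chloride channel protein of microglia, rose 7.07-fold to 29.4, 105.0 and 61.2 CPM (adjusted p = 0.00407). Piezo1, a mechanosensitive channel, and Hvcn1, the proton channel that works with the NADPH oxidase, rose 4.26-fold and 4.35-fold, calls that did not hold without any 1 control (up to 0.0745 and 0.1) and for Hvcn1 without PSCI replicate 2 or 3, and 1 higher channel was left without a control, 5 without PSCI replicate 1. The sodium channel Scn7a was at 0.966, 0.850 and 2.42 CPM in control and 15.5, 3.82 and 19.8 CPM in PSCI, with PSCI replicate 2 lowest. Its log2 fold change of 3.20 was 3.82 without control replicate 3, and its call did not hold without control replicate 1 or 2 or PSCI replicate 3 (up to 0.0791).

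Zinc and copper transporters had 3 of 18 higher, with Slc39a1, a zinc importer, rising 2.51-fold to 71.4, 132.0 and 110.0 CPM (adjusted p = 0.00622). Slc39a8, another importer, and Atp7a, a copper pump, rose 2.41-fold and 1.58-fold, calls that did not hold without control replicate 2 or 3 or PSCI replicate 3 (up to 0.0689 and 0.0944) and for Atp7a also without control replicate 1 or PSCI replicate 2; the count was 6 without PSCI replicate 1 and 1 without control replicate 2 or 3 or PSCI replicate 3. Of 57 cytosolic ribosomal proteins 4 were higher, among them Rplp0, Rps2 and Rpl22, by 1.71-fold, 1.76-fold and 1.54-fold. These calls did not hold without control replicate 2 or 3 or PSCI replicate 3 (up to 0.0823, 0.0894 and 0.0951), each of which left 0 higher genes. Rpl22 lost its call also without PSCI replicate 2 (0.0512). With the 6 libraries alone or with a replicate block 0 ribosomal genes were called higher. Without PSCI replicate 1 the count was 20, and without PSCI replicate 2 it was 2. In 53 of the 57 genes the log2 fold change was above 0, with a median of 0.27 that was 0.13 without PSCI replicate 2. The family level was 6.92 to 7.14 log2 CPM in control, and 6.89, 7.51 and 7.40 in PSCI replicates 1, 2 and 3, so that replicate 1 lay below all controls. Of 31 constitutive proteasome subunits 0 passed with edgeR in either direction. Among 5 galectins Lgals1 rose 10.1-fold to 8.72, 41.4 and 32.4 CPM (adjusted p = 0.00969), a call that did not hold without control replicate 2 or 3 (up to 0.0519) and with limma-voom.

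Of 26 G1 cyclins, cyclin-dependent kinase inhibitors and p53 targets 6 were higher and 0 lower. Gadd45a, a stress-induced brake on division, rose 3.13-fold from 7.38, 3.68 and 4.48 CPM to 10.8, 18.4 and 19.6 CPM (adjusted p = 0.0114, and up to 0.0587 without control replicate 2 or 3). Cdkn2c, an inhibitor of G1 kinases, rose 4.34-fold to 3.75, 16.8 and 8.75 CPM, with a log2 fold change of 2.12 that was 1.47 without PSCI replicate 2, and its call did not hold without any 1 control or PSCI replicate 3 (up to 0.0923). The count was 2, 1 and 1 without control replicates 1, 2 and 3, 2 without PSCI replicate 3, 11 without PSCI replicate 1, and 3 with limma-voom or the 6 libraries alone. Among 28 MAP kinase phosphatases and RGS proteins 1 was higher and 0 lower, and without PSCI replicate 2 the count of lower genes was 3. The higher gene, Rgs16, went from 1.10, 0.779 and 1.03 CPM to 1.70, 6.31 and 2.55 CPM. Its adjusted p of 0.0499 passed 0.05 without any 1 library but PSCI replicate 1 (up to 0.147) and under other scalings, and its log2 fold change of 1.85 was 1.13 without PSCI replicate 2.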
